A study of Homo sapiens with 30 samples.

Results

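The collagen genes were taken as every gene symbol made of COL, a collagen type number, A and a chain number, except COL17A1, in polyadenylated RNA of the melanoma line A375. The rule found 43 genes among the 26364 symbols counted, placed on 17 chromosomes. Of these 43 genes, 31 had enough counts to be tested. A375 is an established human melanoma line. Its cells had been stained for surface integrin β4 (ITGB4, a laminin receptor subunit) and sorted into a negative and a positive fraction, and some had been passed repeatedly through membranes with 5 µm pores coated with fibronectin. The 30 libraries made 10 groups of 3. Bottom 10 negative and Bottom 10 positive cells had crossed over 10 rounds. Top 10 negative and Top 10 positive cells had failed to cross in 10 rounds. Presorted negative Bottom 4 cells had been sorted first and had then crossed for 4 rounds, and Presorted positive Bottom 5 cells likewise for 5 rounds. Bottom 5 negative cells had crossed for 5 rounds, and Top 5 positive cells had failed to cross in 5 rounds. Parental negative and Parental positive cells were sorted and had not migrated. The number of rounds follows the sample titles, while the series description mentions 5 rounds throughout. All groups are A375 cells, so the results describe a single tumour line. The labels number the libraries as biological replicates without stating that they came from separate cultures, and p-values then measure the spread between these samples, which may be technical. The study's title sets differences that precede migration beside those that arise with it. The sort comparisons and the migration comparisons describe differences between these groups. In them, cells that already differed and cells that changed while crossing cannot be told apart.

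Collagens are trimers of α chains with long stretches of the repeat glycine-X-Y. Fibrillar collagens form the cables of connective tissue, network collagens such as collagen IV form the sheet of basement membranes, fibril-associated collagens decorate and link fibrils, and transmembrane collagens sit in the plasma membrane. In melanoma, tumour cells and stromal fibroblasts both deposit collagen, and collagen IV surrounds tumour cell nests and vessels. The libraries measured here were made from the cell line grown in culture.

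Gene counts per library were 14258919 to 29134945. Levels are in CPM, gene counts scaled to the TMM-adjusted library size, given with the SD over n = 3 libraries, and a level per kilobase divides CPM by the exon length of the gene. The SE beside a log2 fold change comes from the fit, and a gene was called when its adjusted p was under 0.05 over all 15381 genes tested. Counts of collagens with an unadjusted p under 0.05 are given as a description. The share of all genes under that cut was not counted, so these counts do not show that collagens stood out. In all, 6 libraries stood apart, with scores above 30 on the second principal component, which held 21.2% of the variance: replicate 1 of Top 10 negative, replicate 3 of Bottom 10 positive, replicate 2 of Presorted negative Bottom 4, replicate 2 of Bottom 5 negative and replicates 1 and 3 of Top 5 positive. The first component held 32.4% and also spread libraries within groups. Parental negative replicates 1, 2 and 3, for example, scored -77.9, 3.6 and 23.6 on it. Fits without the libraries that stood apart left out none for its score on the first component, and kept all 3 of these. Of the pigment cell lineage markers, SOX10 was at 287 to 1460 CPM and MITF at 23.2 to 66.4 CPM, while PMEL stayed at or under 1.68 CPM, MLANA at or under 0.54 CPM, and TYR was at 0 in 28 of the 30 libraries. PMEL, MLANA and TYR were thus low or near 0 in cells labelled melanoma. Of the 10 listed markers 8 had enough counts to be tested, and the levels of DCT and TYRP1 are not given here. Fewer cells with a transcript and less transcript per cell cannot be told apart in these bulk libraries.

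The 8 genes highest per kilobase held 88.8% of all collagen CPM. Per kilobase, COL9A3, a chain of the fibril-associated collagen IX known from cartilage, was the highest at a mean of 82.4 CPM per kilobase over the 30 libraries. The chains of basement membrane collagen IV followed, with COL4A2 at 37.9 and COL4A1 at 17.7 CPM per kilobase. COL5A2, a chain of the fibril-initiating collagen V, reached 36.9 CPM per kilobase. The chains of the beaded filament collagen VI stood at 34.9 CPM per kilobase for COL6A1 and 25.0 for COL6A2. COL12A1, a fibril-associated chain that bridges fibrils and their surroundings, stood at 5.60 CPM per kilobase, and COL18A1, the multiplexin whose end fragment is endostatin, at 4.81. These levels describe a profile led by both COL4A1 and COL4A2, both COL6A1 and COL6A2, and the single chains COL5A2 and COL9A3. Other chains of collagens V, VI and IX were far lower, with COL5A1 at 3.04, COL6A3 at 0.54, COL9A2 at 2.54 and COL9A1 at 0.03 CPM per kilobase. The levels thus do not show how much of these trimers was made.

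The main chains of dermal collagen were low or at background. COL1A1 ran from 1.53 to 17.7 CPM, with a median of 4.88 CPM over the 30 libraries. COL1A2, the other chain of collagen I, never passed 0.50 CPM, and COL3A1 was at most at 0.40 CPM. Both missed the filter on low counts, as did COL4A3, COL6A5, COL6A6, COL10A1, COL20A1, COL22A1, COL23A1, COL25A1, COL26A1 and COL28A1. None of these 12 genes had more than 15 counts in a library. The genes that passed the filter were 9 of 11 fibrillar, 5 of 6 basement membrane network, 3 of 5 beaded filament, 2 of 3 short-chain network, 8 of 10 fibril-associated, 1 of 3 transmembrane, the anchoring fibril gene, both multiplexins and 0 of 2 others. A gene high in a single group could pass through that group, so counts over the 31 are not counts over all 43.

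**Figure D1:**
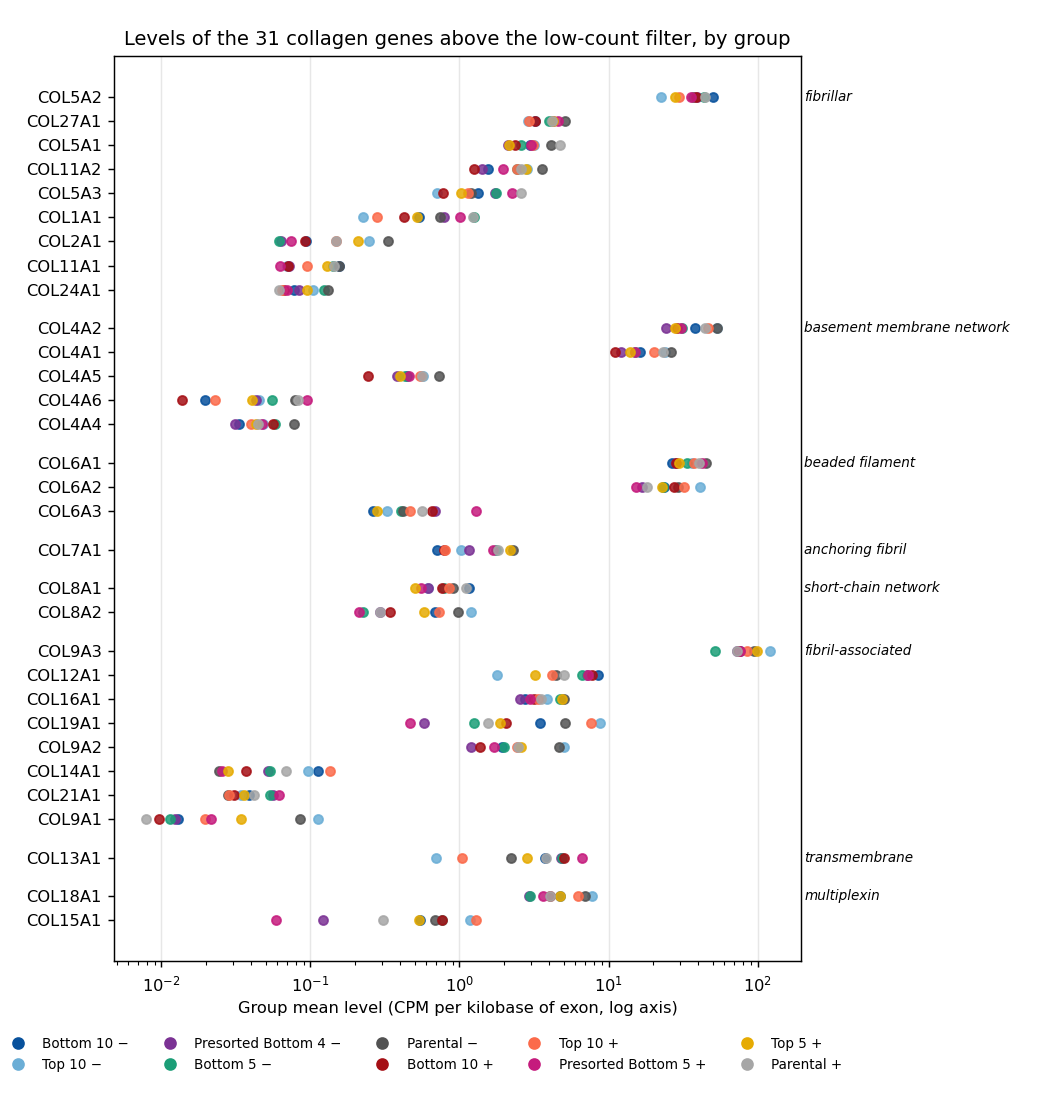
Group mean levels of the 31 collagen genes that passed the filter, in CPM per kilobase of exon on a log axis, arranged by structural class. Each point is the mean of 3 libraries of 1 group; minus and plus mark the negative and positive sort. COL9A3 lies farthest to the right, and COL13A1, COL15A1 and COL19A1 are spread over a wide range of group means.

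The genes differed in how far their group means lay apart. COL6A1 had the narrowest range, 1.67-fold between 143 CPM in Bottom 10 negative and 240.0 CPM in Parental negative cells. COL27A1, a fibrillar collagen of cartilage, ranged over 1.78-fold. COL13A1, a collagen that spans the plasma membrane at cell-matrix contacts, ranged over 9.51-fold. COL19A1, a minor fibril-associated collagen, ranged over 18.9-fold, and COL15A1, the multiplexin of outer basement membranes, over 21.9-fold. For COL15A1 the spread lay within groups: it stood at 19.6 CPM in replicate 2 of Top 10 positive and 19.5 CPM in replicate 2 of Top 10 negative cells, and at 4.56 CPM or less in the other replicates of these groups. It was also at 14.4 CPM in replicate 1 of Bottom 5 negative cells and at 11.7 CPM in replicate 1 of Parental negative cells, against 1.18 CPM or less in their other replicates.

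Sequences just upstream of the called genes and of the collagen IV pair are shown because the pair shares its upstream region and the called genes moved in different comparisons. They come from RefSeq on the build GRCh38.p14, while the counts were made on hg19. Motifs were searched on both strands, 5 in all: AP-1 (TGANTCA), TEAD (GGAATG), the E-box (CACGTG), the CCAAT box (CCAAT) and the GC box (GGGCGG). The first 4 windows hold the 250 bases before the start of the gene on its own strand, and capitals mark motif matches. The COL13A1 window lies at chr10:69801656-69801905 on the plus strand, COL12A1 at chr6:75206054-75206303 on the minus strand, COL7A1 at chr3:48595330-48595579 on the minus strand and COL9A2 at chr1:40317287-40317536 on the minus strand. The genes COL4A1 and COL4A2 run in opposite directions from starts with 126 bases between them, and that stretch is shown on the plus strand at chr13:110307158-110307283.
COL13A1: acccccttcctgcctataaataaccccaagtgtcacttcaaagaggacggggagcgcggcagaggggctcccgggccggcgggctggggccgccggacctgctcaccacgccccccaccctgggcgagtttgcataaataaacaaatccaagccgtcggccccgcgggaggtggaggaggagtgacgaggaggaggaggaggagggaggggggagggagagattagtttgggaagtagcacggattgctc
COL12A1: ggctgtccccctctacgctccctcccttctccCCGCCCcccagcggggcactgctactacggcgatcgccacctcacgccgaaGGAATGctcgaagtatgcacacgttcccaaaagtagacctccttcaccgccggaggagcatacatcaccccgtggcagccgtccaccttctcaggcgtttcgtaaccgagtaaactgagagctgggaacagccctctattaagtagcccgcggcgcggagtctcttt
COL7A1: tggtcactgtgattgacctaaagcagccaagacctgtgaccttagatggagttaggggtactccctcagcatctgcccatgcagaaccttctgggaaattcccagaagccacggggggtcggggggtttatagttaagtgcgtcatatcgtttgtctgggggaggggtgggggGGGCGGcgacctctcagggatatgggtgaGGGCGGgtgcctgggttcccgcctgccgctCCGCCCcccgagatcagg
COL9A2: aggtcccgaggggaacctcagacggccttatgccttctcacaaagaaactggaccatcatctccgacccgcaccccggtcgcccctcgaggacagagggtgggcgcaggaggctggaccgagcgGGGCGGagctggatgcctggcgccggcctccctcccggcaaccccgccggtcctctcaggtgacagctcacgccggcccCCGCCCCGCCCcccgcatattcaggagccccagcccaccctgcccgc
COL4A1/COL4A2: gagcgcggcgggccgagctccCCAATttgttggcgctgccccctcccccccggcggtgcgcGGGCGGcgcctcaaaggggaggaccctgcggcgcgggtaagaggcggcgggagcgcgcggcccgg

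The COL13A1 window held none of the 5 motifs. The COL12A1 window held 1 TEAD match and 1 GC box, the COL7A1 window 3 GC boxes, the COL9A2 window 3 GC boxes of which a pair overlaps, and the stretch between COL4A1 and COL4A2 held 1 CCAAT box and 1 GC box. The table gave windows for 31 of the 43 genes, 43 windows in all because some genes have several starts. A GC box was found in 24 of these windows, 55.8%, against 42.6% of all 35116 windows in the table. AP-1 letters were found in 1 window, 2.33% against 6.57% of all windows, TEAD letters in 3, 6.98% against 11.9%, and CCAAT in 11, 25.6% against 32%. The E-box was in 0 of the 43 windows, against 6.34% of all. The median GC content was 64.4% in the collagen windows and 58% in all windows, and its part in these shares was not tested. Some collagen windows overlap, such as those of COL4A1 and COL4A2. A match describes letters only, and no binding was measured. Of the called genes, COL2A1 and COL5A2 are not shown. COL4A6 and COL4A5 also start in opposite directions, with 379 or 1415 bases between their starts, and so do COL4A4 and COL4A3, with 418 bases.

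The comparison of cells that crossed with cells that did not, both after 10 rounds, asks which collagens go with crossing. In the negative sort 3 of 31 collagen genes were called higher and 0 lower in Bottom 10 negative than in Top 10 negative cells, while 1.33% of all genes tested were called and 0.949% were called higher. The 3 genes were COL13A1, COL12A1 and COL5A2. In the positive sort COL13A1 alone was called, higher in Bottom 10 positive than in Top 10 positive cells, where 0.943% of all genes were called and 0.631% were called higher. The median log2 fold change of the 31 collagens was -0.49 in the negative sort, with 10 genes above 0 and 21 below, against a median of -0.01 over all genes tested. The positive sort had a median of -0.39, with 9 above 0 and 22 below, against 0.03 over all genes. The called collagens were among the smaller number above 0.

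COL13A1, on chromosome 10, had 18.9, 24.9 and 22.3 CPM in Bottom 10 negative libraries, against 5.33, 3.90 and 3.11 CPM in Top 10 negative libraries. Positive cells had 22.6, 32.2 and 33.8 CPM in Bottom 10 positive libraries, against 5.97, 5.91 and 6.34 CPM in Top 10 positive libraries. Every Bottom 10 library was above every Top 10 library in both sorts, and the Top 10 libraries lay close together. On the log2 scale Bottom 10 over Top 10 came to 2.42 ± 0.41 for negative cells, with a p of 0.0017 in the quasi-likelihood test of edgeR after adjustment by Benjamini-Hochberg. For positive cells it came to 2.28 ± 0.40 (adjusted p = 0.00407, edgeR). Both calls held in 6 of 6 fits that left out a library, with edgeR adjusted p-values of 0.00376 to 0.0177 for negative and 0.00661 to 0.0355 for positive cells. Without the 6 libraries that stood apart the log2 fold changes were 2.64 (adjusted p = 0.00699, edgeR) and 2.16 (adjusted p = 0.0132, edgeR). The difference between the sorts, positive over negative, was -0.14 ± 0.55 on the log2 scale (adjusted p = 0.998, edgeR).

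COL12A1, on chromosome 6, had 88.9, 128 and 99.7 CPM in Bottom 10 negative libraries, against 9.80, 26.8 and 30.7 CPM in Top 10 negative libraries. The groups did not overlap, and the lowest Top 10 library was replicate 1, which stood apart on the second principal component. This was a log2 fold change of 2.24 ± 0.52 (adjusted p = 0.0262, edgeR), and 1.87 (adjusted p = 0.0224, edgeR) without the libraries that stood apart. Among positive cells it had 121, 115 and 54.2 CPM in Bottom 10 libraries, against 44.8, 52.1 and 60 CPM in Top 10 libraries. These groups overlapped through replicate 3 of Bottom 10 positive, another library that stood apart. The log2 fold change there was 0.89 ± 0.50 (adjusted p = 0.671, edgeR). The call in the negative sort held in 2 of 6 fits that left out a library, with edgeR adjusted p-values up to 0.191, and was lost without replicate 1 or 2 of Top 10 negative and without replicate 2 or 3 of Bottom 10 negative.

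COL5A2, on chromosome 2, had 391, 414 and 326 CPM in Bottom 10 negative libraries, against 162, 196 and 143 CPM in Top 10 negative libraries. The Bottom 10 libraries all lay above the Top 10 libraries. That gave a log2 fold change of 1.18 ± 0.27 (adjusted p = 0.0211, edgeR), and 1.15 (adjusted p = 0.0181, edgeR) without the libraries that stood apart. Among positive cells it had 401, 242 and 218 CPM in Bottom 10 libraries, against 264, 203 and 196 CPM in Top 10 libraries, and the groups overlapped (log2 fold change 0.38 ± 0.26, adjusted p = 0.78, edgeR). The difference between the sorts was -0.80 ± 0.37 for COL5A2 and -1.35 ± 0.71 for COL12A1 (edgeR adjusted p = 0.998 for each), so these genes were not shown to differ between the sorts. Without the libraries that stood apart it was -0.62 ± 0.31 for COL5A2 and -0.71 ± 0.51 for COL12A1 (edgeR adjusted p = 1 for each). The call in the negative sort held in 2 of 6 fits that left out a library, with edgeR adjusted p-values up to 0.118, and was lost without replicate 1 or 3 of Top 10 negative and without replicate 1 or 2 of Bottom 10 negative. COL5A1, which pairs with COL5A2 in collagen V, had a log2 fold change of -0.07 ± 0.40 for negative and -0.39 ± 0.41 for positive cells.

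**Figure D2:**
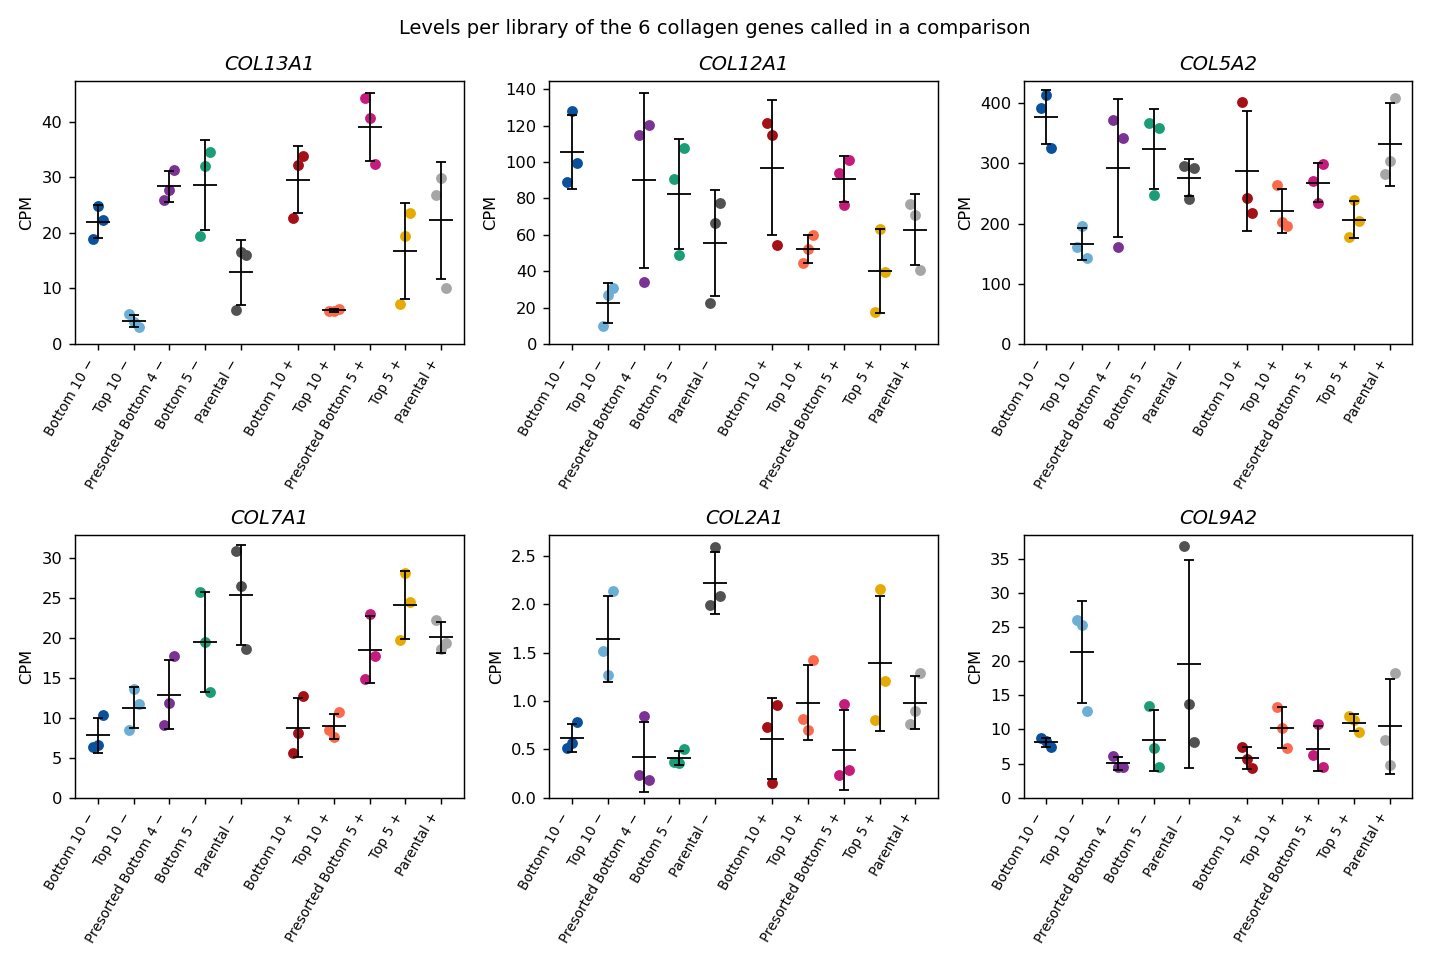
Level in CPM of the 6 collagen genes called in at least 1 comparison, in each of the 30 libraries. Points are libraries, the long bar is the mean and the error bar the SD of 3 libraries, with the negative sort at the left of each panel and the positive sort at the right; COL13A1 lies between 3.11 and 6.34 CPM in all 6 Top 10 libraries.

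Libraries of the Top 10 and Bottom 10 groups with the same replicate number deviated together within each of these comparisons, so a fit of only these 4 groups with the replicate number as a block is given beside them. It differs from the fit above both in its groups and in the block. Its p-values do not allow for the block having been chosen from these libraries. In that fit 12 of 28 collagen genes tested were called in the negative sort, where 9.29% of all genes were called, and 8 of 28 in the positive sort, where 7.75% were. In the negative sort COL13A1, COL12A1, COL5A2 and COL1A1 were higher in Bottom 10 cells. COL1A1, the main chain of collagen I, had 5.82, 5.84 and 4.07 CPM in Bottom 10 negative libraries, against 2.34, 2.63 and 1.63 CPM in Top 10 negative libraries, with no overlap (blocked log2 fold change 1.25 ± 0.24, edgeR adjusted p = 0.00921). In the same 4 groups with no block COL1A1 was also called (log2 fold change 1.25 ± 0.27, adjusted p = 0.0434, edgeR), while in the fit of all 10 groups its edgeR adjusted p was 0.627. The 4 groups with no block gave 5 calls among negative cells, COL13A1, COL12A1, COL5A2, COL1A1 and COL9A2, where 1.85% of all genes were called, and 2 among positive cells, COL13A1 and COL14A1, where 1.23% were. The genes that were lower in the blocked fit were COL2A1, COL6A2, COL9A2, COL9A3, COL11A2, COL16A1, COL18A1 and COL19A1. They ranged from a log2 fold change of -0.49 ± 0.12 for COL16A1, a fibril-associated collagen (adjusted p = 0.0302, edgeR), to -1.37 ± 0.35 for COL2A1, the fibrillar collagen of cartilage (adjusted p = 0.0357, edgeR).

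For positive cells the blocked fit called COL13A1 higher and 7 collagens lower: COL4A1, COL4A5, COL8A2, COL9A2, COL11A2, COL14A1 and COL19A1. COL19A1 had 25.7, 19.7 and 6.84 CPM in Bottom 10 positive libraries, against 74.5, 78.6 and 42.8 CPM in Top 10 positive libraries. The groups did not overlap, and replicate 3 was the lowest of both. Its log2 fold change was -1.96 ± 0.33 in the blocked fit (adjusted p = 0.00568, edgeR) and -1.90 ± 0.82 in the fit of all 10 groups (adjusted p = 0.435, edgeR), and it was not called in the 4 groups with no block. COL4A1 had 200, 174 and 119 CPM in Bottom 10 positive libraries, against 324, 272 and 301 CPM in Top 10 positive libraries, again without overlap. Its log2 fold change was -0.87 ± 0.20 in the blocked fit (adjusted p = 0.0283, edgeR) and -0.87 ± 0.31 in the fit of all 10 groups (adjusted p = 0.291, edgeR). In the 4 groups with no block it was -0.86 ± 0.21 (adjusted p = 0.0843, edgeR). COL9A2, COL11A2 and COL19A1 were each on both lists of lower genes. The blocked calls depended on the replicates: there were 5 for negative and 3 for positive cells without replicate 1, 0 for each without replicate 2, and 15 for negative and 8 for positive cells without replicate 3. The share of all genes called in these fits was not counted, so the shift is not shown to be particular to collagens.

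Of the pigment cell lineage markers, 0 of 8 tested were called in either sort. Their sum over 10 genes was 1055 to 1329 CPM in Bottom 10 negative and 1341 to 1965 CPM in Top 10 negative libraries, and 690 to 1272 CPM in Bottom 10 positive and 1108 to 1697 CPM in Top 10 positive libraries. Of the fibroblast markers, 0 of 7 tested were called in either sort. Their sum over 8 genes was 29.6 to 55.0 CPM in Bottom 10 negative and 26.9 to 45.5 CPM in Top 10 negative libraries. THY1, at or under 0.60 CPM in every library, made up little of it, and the levels of the other listed markers are not given here. Decorin (DCN), also on this list, was called higher in Presorted negative Bottom 4 than in Parental negative cells, as given below. Of the endothelial list TIE1, a receptor kinase of vessels, was called higher in Bottom 10 negative cells, with 4.75, 10.5 and 4.77 CPM against 0.87, 1.23 and 0.51 CPM in Top 10 negative cells (log2 fold change 2.93 ± 0.68, adjusted p = 0.0256, edgeR). The sum of the 5 endothelial markers did not overlap either, at 11.4 to 15.8 CPM in Bottom 10 negative and 5.54 to 8.40 CPM in Top 10 negative libraries. PECAM1 and CDH5 were at or near 0 there. KDR had 3.75 to 7.45 CPM in Bottom 10 negative and 2.59 to 6.82 CPM in Top 10 negative libraries, VWF had 0.65 to 1.36 CPM in Bottom 10 negative and 1.02 to 2.17 CPM in Top 10 negative libraries, and neither was called. The leukocyte sum was nearly all CD68, with CD3E at 0 in all 30 libraries, and the keratinocyte sum was mostly KRT10. These sums were 37.1 to 111 and 65.3 to 108 CPM in Bottom 10 negative libraries, 22.7 to 75.2 and 82.0 to 113 CPM in Top 10 negative libraries, 47.2 to 156 and 79.9 to 210.0 CPM in Bottom 10 positive libraries, and 27.4 to 85.5 and 68.2 to 100.3 CPM in Top 10 positive libraries. The part of all these markers in the collagen differences was not tested.

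The other collagens of high level were not called between these groups in the fit without a block. COL9A3 had 467, 306 and 328 CPM in Bottom 10 negative libraries, against 764, 574 and 412 CPM in Top 10 negative libraries, which overlapped (log2 fold change -0.67 ± 0.40, adjusted p = 0.742, edgeR). COL4A2 had 776, 727 and 707 CPM in Bottom 10 negative libraries, against 881, 1299 and 932 CPM in Top 10 negative libraries. The COL4A2 libraries did not overlap, without a call (adjusted p = 0.896, edgeR). COL6A1 had 153, 144 and 133 CPM in Bottom 10 negative libraries, against 174, 241 and 166 CPM in Top 10 negative libraries, also without overlap and without a call (log2 fold change -0.43 ± 0.36, adjusted p = 0.916, edgeR). COL6A2 had 152, 154 and 75.6 CPM in Bottom 10 negative libraries, against 248, 317 and 95.9 CPM in Top 10 negative libraries. COL18A1 had 51.1, 35.6 and 34.1 CPM in Bottom 10 negative libraries, against 74.4, 76.4 and 48.0 CPM in Top 10 negative libraries. Both overlapped, and replicate 3 was the lowest library of each group. For positive cells COL4A2 had 679, 641 and 345 CPM in Bottom 10 libraries, against 988, 951 and 749 CPM in Top 10 libraries, with no overlap (log2 fold change -0.69 ± 0.38, adjusted p = 0.668, edgeR). The positive libraries of COL9A3, COL6A1, COL6A2 and COL18A1 overlapped, with log2 fold changes of -0.61 to -0.17.

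**Figure D3:**
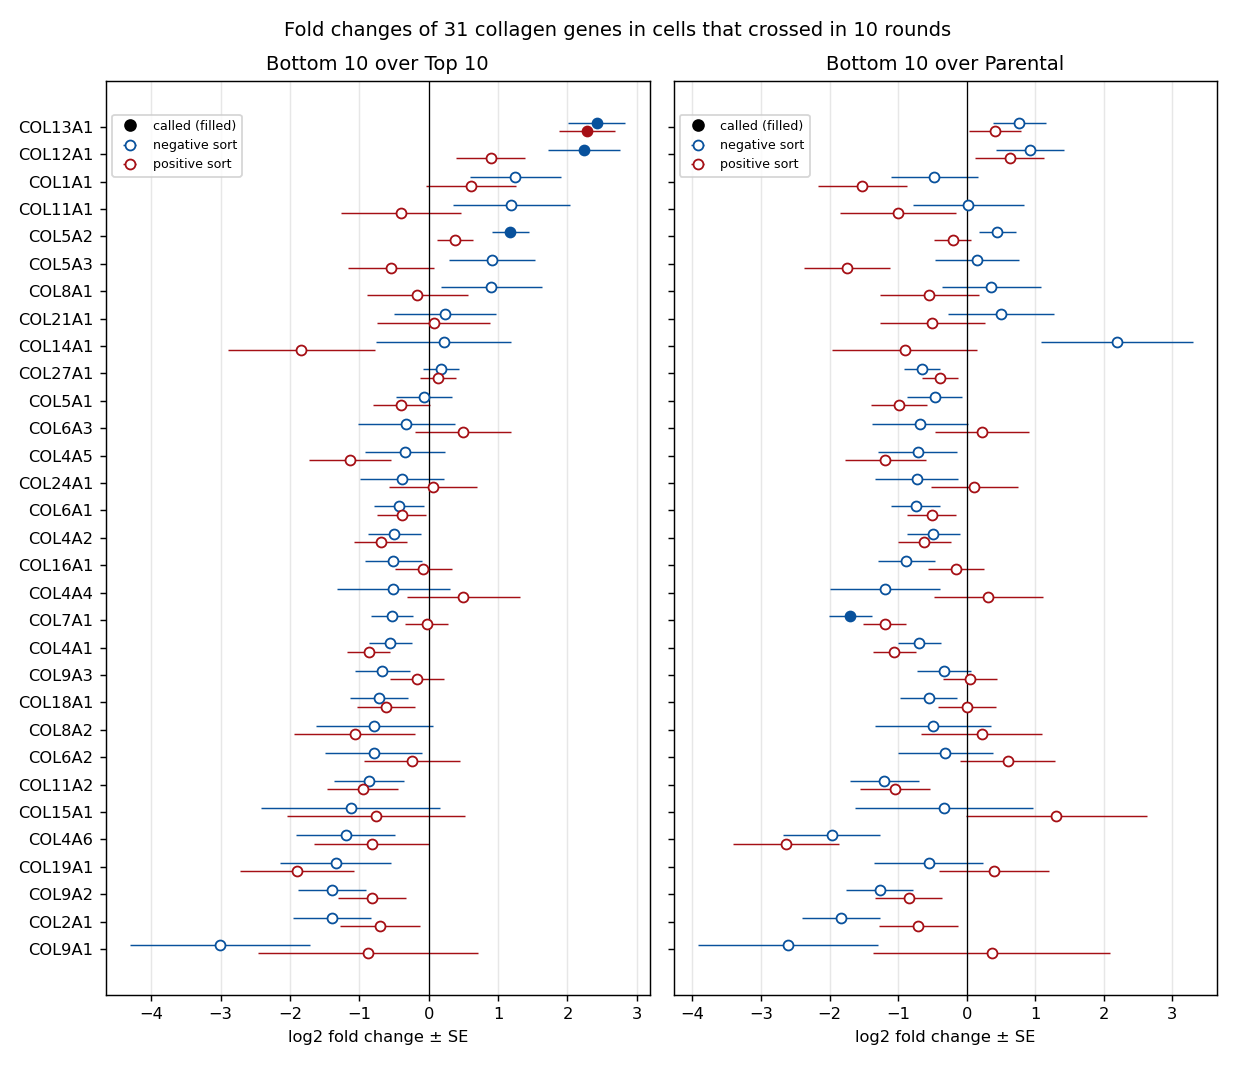
Log2 fold changes with SE of the 31 collagen genes that passed the filter, for Bottom 10 over Top 10 cells (left) and Bottom 10 over Parental cells (right), in the negative (blue) and positive (red) sort, from the fit without a block. Filled points were called; COL13A1 is called in both sorts at the left, and COL7A1 in the negative sort at the right.

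Against Parental cells, the collagen called after crossing for 10 rounds was a different one. COL7A1, the collagen of the anchoring fibrils that tie the epidermal basement membrane to the dermis, was the only collagen of 31 called in Bottom 10 negative against Parental negative cells, and it was lower. Of all genes tested 0.325% were called in this comparison. COL7A1 had 6.39, 6.63 and 10.4 CPM in Bottom 10 negative libraries, against 30.9, 26.5 and 18.6 CPM in Parental negative libraries. The groups did not overlap. The log2 fold change was -1.70 ± 0.31 (adjusted p = 0.0129, edgeR), and -1.71 (adjusted p = 0.00941, edgeR) without the libraries that stood apart. The call held in 2 of 6 fits that left out a library, with edgeR adjusted p-values up to 0.137, and was lost without replicate 1 or 2 of either group. With only these groups in the fit 0 collagens were called.

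For positive cells 0 of 31 collagens were called in Bottom 10 against Parental cells, where 0.247% of all genes were and MITF among them, and 7 collagens had an unadjusted p under 0.05. COL7A1 had 5.53, 8.04 and 12.7 CPM in Bottom 10 positive libraries, against 22.2, 18.5 and 19.3 CPM in Parental positive libraries. Here too every Bottom 10 library was below every Parental library, but the fold change of -1.19 ± 0.31 on the log2 scale missed the threshold (adjusted p = 0.156, edgeR). DESeq2 called COL7A1 in this comparison (adjusted p = 0.0242). The other gene named by its p was COL4A6, a minor basement membrane chain with 6 counts in all 3 Bottom 10 positive and 55 in all 3 Parental positive libraries (log2 fold change -2.64 ± 0.77, adjusted p = 0.23, edgeR). Without the libraries that stood apart its log2 fold change was -3.74 ± 0.96 (adjusted p = 0.124, edgeR). COL13A1 had a log2 fold change over Parental cells of 0.77 ± 0.39 for Bottom 10 negative (adjusted p = 0.683, edgeR) and of 0.41 ± 0.38 for Bottom 10 positive cells (adjusted p = 0.775, edgeR). MITF, the pigment cell transcription factor, had 33.8, 23.2 and 27.8 CPM in Bottom 10 positive and 52.1, 57.1 and 64.9 CPM in Parental positive libraries (log2 fold change -1.04 ± 0.21, adjusted p = 0.0243, edgeR), and its part in the collagen values was not tested. The difference between the sorts in the change against Parental cells was called for 0 of 31 collagens and 0% of all genes by edgeR, with 1 collagen under an unadjusted p of 0.05 and 0 collagens called by DESeq2. The smallest p-values there were those of COL5A3 (-1.90 ± 0.87 on the log2 scale) and COL14A1 (-3.10 ± 1.53), each with an edgeR adjusted p of 1.

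Cells that failed to cross in 10 rounds were set against the same Parental cells. COL13A1 was called lower in Top 10 positive than in Parental positive cells, the only one of 31 collagens, where 0.384% of all genes were called. The Top 10 positive values of 5.97, 5.91 and 6.34 CPM stood against 26.8, 29.8 and 10.1 CPM in Parental positive libraries. Top 10 libraries were the lower in every case, and replicate 3 of Parental positive lay nearest to them. The log2 fold change was -1.87 ± 0.40 (adjusted p = 0.0354, edgeR), and -1.87 (adjusted p = 0.0293, edgeR) without the libraries that stood apart. It held in 1 of 6 fits that left out a library, the one without replicate 3 of Parental positive (adjusted p = 0.00568, edgeR), and the others reached 0.237. With only these groups in the fit 0 collagens were called.

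In the negative sort 0 collagens were called in Top 10 against Parental cells, where 0.0455% of all genes were, and 6 had an unadjusted p under 0.05. The Top 10 negative values of COL13A1, 3.11 to 5.33 CPM, stood against 6.20, 16.6 and 16.1 CPM in Parental negative libraries without overlap (log2 fold change -1.65 ± 0.40, adjusted p = 0.208, edgeR). DESeq2 called this gene alone (adjusted p = 0.0215), and so did edgeR without replicate 1 of Parental negative (adjusted p = 0.0403). COL7A1 had 8.46, 13.6 and 11.7 CPM in Top 10 negative and 8.47, 7.62 and 10.7 CPM in Top 10 positive libraries. These lay below all Parental libraries of the same sort, with log2 fold changes of -1.17 ± 0.31 in each sort (edgeR adjusted p = 0.309 for negative and 0.119 for positive cells), and DESeq2 called it for positive cells (adjusted p = 0.0205). The comparisons with Parental cells share the Parental libraries, so their values are not independent of each other.

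Between the sorts no collagen was called without the block. In Parental positive against Parental negative cells 0 of 31 collagens were called by edgeR or DESeq2, 0.0585% of all genes were called by edgeR (0.0195% lower), and 3 collagens had an unadjusted p under 0.05. COL2A1 had 0.76, 0.90 and 1.29 CPM in Parental positive and 1.99, 2.59 and 2.08 CPM in Parental negative libraries. The libraries did not overlap, with a log2 fold change of -1.17 ± 0.55 (adjusted p = 1, edgeR). COL9A1, a chain of collagen IX, had 4 counts in all 3 Parental positive and 32 in all 3 Parental negative libraries, nearly all in replicate 1 at 1.70 CPM (log2 fold change -3.30 ± 1.41, adjusted p = 0.952, edgeR). In Top 10 positive against Top 10 negative cells 0 collagens were called by edgeR or DESeq2 and 0.013% of all genes by edgeR, with 2 collagens under an unadjusted p of 0.05, COL12A1 (log2 fold change 1.22 ± 0.51) and COL9A2 (-1.06 ± 0.49), each with an edgeR adjusted p of 1. In the blocked fit COL9A2 was called (log2 fold change -1.03 ± 0.17, adjusted p = 0.0457, edgeR), where 0.24% of all genes were.

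In Bottom 10 positive against Bottom 10 negative cells 0 collagens and 0% of all genes were called by edgeR, with 0 collagens under an unadjusted p of 0.05 and 0 called by DESeq2. The smallest p-values belonged to COL6A3 (log2 fold change 1.32 ± 0.70), the large chain of collagen VI, and COL4A1 (-0.56 ± 0.31), each with an edgeR adjusted p of 1. In the blocked fit COL14A1, a fibril-associated collagen, was called. It had 0.28, 0.40 and 0.27 CPM in Bottom 10 positive and 0.96, 1.03 and 0.91 CPM in Bottom 10 negative libraries, with 17 counts in all for Bottom 10 positive and 69 for Bottom 10 negative cells. The groups did not overlap (blocked log2 fold change -1.57 ± 0.30, edgeR adjusted p = 0.0484), and 0.83% of all genes were called. The call was lost in each of the 3 blocked fits that left out a replicate number.

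Cells that were sorted first and then crossed for 4 rounds had the largest number of genes called among the comparisons with Parental cells. In Presorted negative Bottom 4 against Parental negative cells 2% of all genes were called (1.1% lower), and 2 of 31 collagens, both lower. The median log2 fold change of the collagens was -0.93, with 8 above 0 and 23 below, against 0.01 over all genes, and 12 had an unadjusted p under 0.05. The share of all genes under that unadjusted cut was not counted. COL2A1 had 0.24, 0.84 and 0.19 CPM in Presorted negative Bottom 4 and 1.99, 2.59 and 2.08 CPM in Parental negative libraries, with 22 counts in all for Presorted negative Bottom 4 and 120 for Parental negative cells. Every migrated library was below every Parental library (log2 fold change -2.50 ± 0.60, adjusted p = 0.0316, edgeR). Replicate 2, the highest of the migrated libraries, stood apart, and without such libraries the log2 fold change was -3.36 (adjusted p = 0.0176, edgeR). The call held in 2 of 6 fits that left out a library and was lost without replicate 1 or 2 of Parental negative and without replicate 1 or 3 of Presorted negative Bottom 4, with edgeR adjusted p-values up to 0.0974.

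COL9A2, on chromosome 1, was the other. It had 6.13, 4.51 and 4.49 CPM in Presorted negative Bottom 4 and 36.8, 13.7 and 8.22 CPM in Parental negative libraries. The groups did not overlap, although the Parental libraries were far apart. This corresponded to a log2 fold change of -1.95 ± 0.50 (adjusted p = 0.043, edgeR). The call held only without replicate 3 of Parental negative (adjusted p = 0.0169, edgeR), reached 0.394 in the other fits that left out a library, and was lost without the libraries that stood apart (adjusted p = 0.173, edgeR). COL19A1, with 5.10, 5.43 and 4.34 CPM in Presorted negative Bottom 4 and 87.5, 25.7 and 17.3 CPM in Parental negative libraries, did not overlap either (log2 fold change -3.14 ± 0.87, adjusted p = 0.0604, edgeR). COL4A1 had 219, 129 and 187 CPM against 453, 390 and 325 CPM in the same groups (log2 fold change -1.13 ± 0.31, adjusted p = 0.0607, edgeR). DESeq2 called these and COL7A1 too, 5 collagens in all, where it called 4.45% of all genes. With only these groups in the edgeR fit 0 collagens were called.

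In Presorted positive Bottom 5 against Parental positive cells 0 collagens were called by edgeR or DESeq2, 0.039% of all genes were called by edgeR (0.0065% higher and 0.0325% lower), and 2 collagens had an unadjusted p under 0.05. COL13A1 reached its highest group mean here, with 44.3, 40.8 and 32.4 CPM in Presorted positive Bottom 5 libraries, above all 3 Parental positive libraries (log2 fold change 0.82 ± 0.38, edgeR adjusted p = 1). COL19A1 was at its lowest group mean, with 2.09, 7.11 and 2.72 CPM in Presorted positive Bottom 5 and 5.01, 4.24 and 30.5 CPM in Parental positive libraries, which overlapped (log2 fold change -1.75 ± 0.84, edgeR adjusted p = 1).

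After 5 rounds, 0 collagens were called in either sort by edgeR. In Bottom 5 negative against Parental negative cells 0.858% of all genes were called, and 9 collagens had an unadjusted p under 0.05. COL2A1 had 0.37, 0.36 and 0.50 CPM in Bottom 5 negative libraries, below all Parental negative libraries (log2 fold change -2.42 ± 0.60, adjusted p = 0.0514, edgeR). With replicate number as a block in the fit of all 10 groups, where the numbers of these groups paired, COL2A1 was called (log2 fold change -2.43 ± 0.58, adjusted p = 0.0332, edgeR), as it was by DESeq2 (adjusted p = 0.00413). It was called in 0 of 6 edgeR fits that left out a library, with adjusted p-values of 0.0753 to 0.253, and not without the libraries that stood apart (adjusted p = 0.128, edgeR). COL13A1 had 19.5, 32.1 and 34.6 CPM in Bottom 5 negative libraries, again without overlap with Parental negative (log2 fold change 1.15 ± 0.39, adjusted p = 0.226, edgeR). In Top 5 positive against Parental positive cells 0.163% of all genes were called by edgeR and 0 collagens by DESeq2, and 4 collagens had an unadjusted p under 0.05. There COL5A1 had a log2 fold change of -1.13 ± 0.41 (adjusted p = 0.228, edgeR) and COL5A2 of -0.68 ± 0.26 (adjusted p = 0.239, edgeR). Without replicate 2 of Top 5 positive, which leaves 2 libraries that both stood apart, COL5A1 and COL4A1 were called there. Without the libraries that stood apart, which leaves replicate 2 alone, the log2 fold change of COL5A1 was -0.51 ± 0.50 (adjusted p = 1, edgeR), with the lone library assumed to vary like the other groups.

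The number of rounds was compared on each side of the membrane. In Bottom 10 negative against Bottom 5 negative cells 0.117% of all genes and 0 collagens were called by edgeR, with 1 collagen under an unadjusted p of 0.05. COL7A1 had 6.39, 6.63 and 10.4 CPM in Bottom 10 negative and 25.7, 19.4 and 13.2 CPM in Bottom 5 negative libraries, with no overlap (log2 fold change -1.32 ± 0.31, adjusted p = 0.0975, edgeR). COL4A6 followed, at -1.46 ± 0.72 (adjusted p = 0.7, edgeR). In Top 10 positive against Top 5 positive cells 0.0455% of all genes (0.0325% lower) and 0 collagens were called by edgeR, with 5 collagens under an unadjusted p of 0.05. COL7A1 had 8.47, 7.62 and 10.7 CPM in Top 10 positive and 19.6, 28.1 and 24.4 CPM in Top 5 positive libraries, again with no overlap (log2 fold change -1.43 ± 0.31, adjusted p = 0.103, edgeR). COL13A1 had a log2 fold change of -1.46 ± 0.40 (adjusted p = 0.162, edgeR). DESeq2 called COL7A1 in both comparisons, with adjusted p-values of 0.0101 and 0.00436, and COL13A1 in the second (adjusted p = 0.0383). Without the libraries that stood apart, COL7A1 was not called in Bottom 10 against Bottom 5 negative cells (log2 fold change -1.31 ± 0.32, adjusted p = 0.194, edgeR). In Top 10 against Top 5 positive cells its log2 fold change was then -1.65, with only replicate 2 of Top 5 positive left. Before migration and on the upper side of the membrane COL7A1 thus averaged 20.02 ± 1.93 CPM in Parental positive, 24.0 ± 4.23 CPM in Top 5 positive and 8.92 ± 1.58 CPM in Top 10 positive cells (SD, n = 3 each).

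Chains that assemble into the same collagen differed in how far their ratio varied. The ratio of COL4A2 to COL4A1 per kilobase ran from 1.71 to 2.82 over the 30 libraries, with a median of 2.03, a range of 1.65-fold, while COL4A1 itself ran from 119 to 455 CPM and COL4A2 from 304 to 1446 CPM. The highest ratio group was Bottom 10 positive, at 2.54 ± 0.30, and the lowest was Parental positive, at 1.90 ± 0.04. The ratio of COL6A1 to COL6A2 ran from 0.55 to 3.16, a range of 5.75-fold that lay on both sides of equal levels. COL6A2 differed widely within groups, for example 259, 67.8 and 46.2 CPM in the 3 Bottom 5 negative libraries and 327, 89.6 and 57.5 CPM in the 3 Parental negative libraries. In both groups replicate 1 was the highest. The ratio of COL9A3 to COL9A2 ran from 15.7 to 107, with a median of 36.9.

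The ratio of COL5A2 to COL5A1 ran from 6.28 to 29.3 per kilobase. It was 13.5, 21.4 and 17.7 in Bottom 10 negative libraries, against 7.37, 6.28 and 8.33 in Top 10 negative libraries. These did not overlap. For positive cells it was 15.8, 13.0 and 24.4 in Bottom 10 libraries, against 8.21, 8.87 and 13.4 in Top 10 libraries, which overlapped. These ratios are given as a description, without a test. Antisense RNAs overlap COL4A2 and COL18A1, and the strand setting of the counting was not given in the sources used here, so reads of these genes and their antisense partners cannot be told apart.

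**Figure D4:**
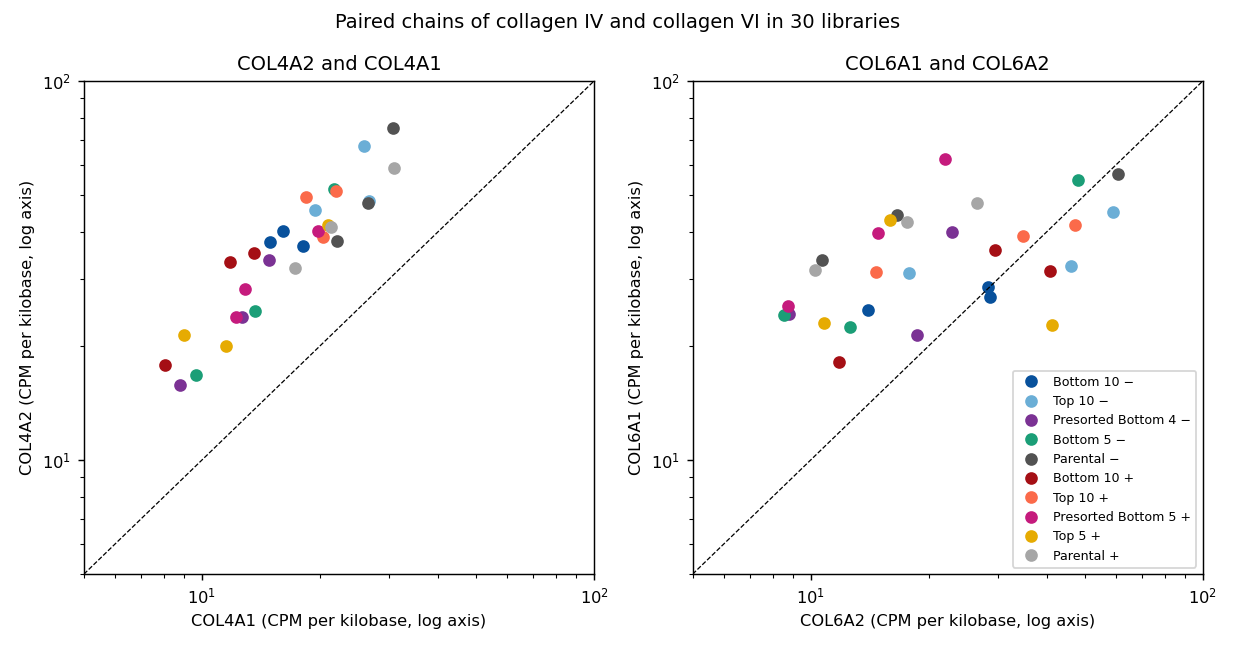
Level per kilobase of the paired chains of collagen IV (COL4A2 against COL4A1, left) and collagen VI (COL6A1 against COL6A2, right) in each of the 30 libraries, on log axes. Each point is a library, coloured by group, and the dashed line marks equal levels; the collagen IV points lie along a band above the line, and the collagen VI points scatter to both sides of it.

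The summed level of all collagens was 2368 ± 182 CPM in Bottom 10 negative, 2931 ± 524 CPM in Top 10 negative and 3018 ± 960 CPM in Parental negative cells (SD, n = 3 each). Among positive cells it was 2017 ± 541 CPM in Bottom 10, 2571 ± 376 CPM in Top 10 and 2584 ± 649 CPM in Parental cells. Presorted negative Bottom 4 cells had the lowest sum, 1868 ± 291 CPM. Basement membrane collagens made up the largest share by class, with 984 ± 34.0 CPM in Bottom 10 negative and 1398 ± 265 CPM in Top 10 negative cells. The libraries of these groups did not overlap in this sum, at 953 to 1020 CPM in Bottom 10 negative and 1175 to 1692 CPM in Top 10 negative cells. The same sum was 465 to 884 CPM in Bottom 10 positive and 1052 to 1321 CPM in Top 10 positive libraries, also without overlap. Neither COL4A1 nor COL4A2 was called in these comparisons without the block.

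Genes that make, cut or bind collagen were counted in lists chosen with earlier results of these data known. Of 21 tested genes for the folding and hydroxylation of collagen chains, 0 were called in any of the 15 comparisons, and the median log2 fold change was 0.06 for Bottom 10 over Top 10 among negative and -0.09 among positive cells. SERPINH1, the collagen chaperone HSP47, had 119, 121 and 144 CPM in Bottom 10 negative and 186, 175 and 170 CPM in Top 10 negative libraries, which did not overlap, but it was not called. Of 8 tested collagen receptors 0 were called. All 8 had a log2 fold change below 0 in Presorted negative Bottom 4 against Parental negative cells, with a median of -0.71, and in Top 5 positive against Parental positive cells, with a median of -0.55. All 8 were above 0 in Top 10 positive against Top 5 positive cells, with a median of 0.83, and in Bottom 10 negative against Bottom 5 negative cells, with a median of 0.22. The Top 5 positive libraries entered both comparisons with that group, so these results are not independent. They had summed receptor levels of 496, 699 and 459 CPM, and the lower ones, replicates 1 and 3, stood apart. The share of all genes on the same side of 0 was not counted. The summed receptor level was 875, 339 and 677 CPM in Presorted negative Bottom 4 libraries, and the lowest, replicate 2, was the library that stood apart. Of 7 tested fibril partners, DCN (decorin) was called higher in that comparison, at 1.86 ± 0.59 CPM in Presorted negative Bottom 4 and 0.59 ± 0.13 CPM in Parental negative cells (log2 fold change 1.63 ± 0.43, adjusted p = 0.0495, edgeR). Of 12 tested collagen-cleaving proteases, MMP15, a membrane-bound metalloprotease, was called lower there, with means of 8.66 CPM in Presorted negative Bottom 4 and 22.2 CPM in Parental negative cells (log2 fold change -1.35 ± 0.30, adjusted p = 0.0164, edgeR).

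Of 12 tested genes for procollagen processing and cross-linking, 2 were called. PXDN, peroxidasin, forms the sulfilimine cross-links of collagen IV. It had 49.9, 45.5 and 47.4 CPM in Bottom 10 negative libraries, against 2.13, 4.13 and 2.09 CPM in Top 10 negative libraries, with no overlap (log2 fold change 4.09 ± 0.40, adjusted p = 1.12e-06, edgeR). Among positive cells it had 20.1, 16.7 and 9.30 CPM in Bottom 10 libraries, against 5.07, 2.96 and 3.49 CPM in Top 10 libraries (log2 fold change 2.00 ± 0.37, adjusted p = 0.00584, edgeR). PXDN was thus higher in Bottom 10 than in Top 10 cells of both sorts. Its substrate genes COL4A1 and COL4A2 had log2 fold changes of -0.55 ± 0.31 and -0.49 ± 0.38 in the negative sort. PXDN was also higher in Bottom 10 negative than in Parental negative cells (log2 fold change 2.16 ± 0.36, adjusted p = 0.0074, edgeR) and than in Bottom 5 negative cells (2.25 ± 0.37, edgeR adjusted p = 0.0076), and higher in Presorted positive Bottom 5 than in Parental positive cells (2.12 ± 0.37, edgeR adjusted p = 0.0302). It was not called in Bottom 10 positive against Parental positive cells. Against Parental negative cells it was not called in Bottom 5 negative or Presorted negative Bottom 4 cells. Its mean was 10.04 CPM in Bottom 5 negative and 10.65 CPM in Parental negative cells. TGM2, a transglutaminase that cross-links matrix proteins, had 317, 496 and 331 CPM in Bottom 10 negative libraries, against 68.0, 85.6 and 75.0 CPM in Top 10 negative libraries (log2 fold change 2.32 ± 0.50, adjusted p = 0.0126, edgeR). Its libraries did not overlap in that comparison, the only one in which TGM2 was called.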

How the data were processed

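The authors deposited raw counts of reads per gene symbol for each library, and the submitters' processing notes name STAR, HTSeq, DESeq and the build hg19. Tool versions, the strand setting and the gene annotation are not given in the sources used here. Of all reads, 11.4 to 18.2% matched no gene, 7.80 to 13.3% matched several places and 1.54 to 2.27% were ambiguous, and these totals were left out. Files with totals of 14258919 to 29134945 gene counts limit the precision of low genes. No libraries of a group were copies (chi-square per degree of freedom at least 12.4).

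Counts were filtered with edgeR (minimum count 10, minimum total 15), given TMM factors, and tested by quasi-likelihood in 1 fit of all 10 groups (edgeR 4.0.16, R 4.3.3). In all, 15 comparisons and 2 interactions were tested, adjusted over 15381 genes by Benjamini-Hochberg. The SE is the size of the log2 fold change over the square root of F. Exon lengths came from GENCODE v29 by symbol. Alternatives were DESeq2 1.42.0, RLE factors, no filter, a replicate block, only the compared groups and leaving out each library. A fit of 4 groups without a block, the blocked fit without each replicate number and the fit without 6 libraries that stood apart were added after seeing the data. The labels do not state a pairing. Numbers were taken to pair where same-numbered libraries correlated above 0.1 in every pair after group means were removed, which held for Bottom 10 and Top 10 cells in the negative (0.406 to 0.692) and positive sort (0.265 to 0.573), between the sorts in Top 10 (0.314 to 0.791) and Bottom 10 cells (0.278 to 0.589), and for Bottom 5 negative and Parental negative cells (0.379 to 0.59). Across both side and sort it did not hold for Top 10 negative and Bottom 10 positive cells, which gave -0.122 for replicate 1. It held for Top 10 positive and Bottom 10 negative cells (0.334 to 0.741). Some groups that were not compared met the rule too. Among these were Presorted negative Bottom 4 with Bottom 5 negative cells (0.467 to 0.544) and Parental negative with Top 5 positive cells (0.213 to 0.6). Meeting the rule was thus not particular to the compared groups. On simulated data of Bottom 10 negative against Top 10 negative cells with 14104 genes, 29 of 100 simulated 2-fold changes and 96 of 100 simulated 4-fold changes were recovered. The simulation fitted these 2 groups alone, unlike the fit of all 10 groups, and changed only genes with a mean above 5 CPM. Of the 138 calls 13 were false, and 0 had the wrong sign.

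The collagen genes and the lists of other genes were chosen with earlier results of these data known. Named were the collagens called in a comparison, the 8 highest per kilobase, the 2 with the smallest p where none was called, and the called members of each list with up to 3 others. Other genes named for their spread or ratio, or from the blocked fit, were chosen after their values were seen.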

Additional observations from a re-analysis of the deposited data

Results flagged for a closer look

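Some collagens moved one way in every numbered pair of one sort and the opposite way in every pair of the other. For Bottom 10 minus Top 10 cells, the mean log2 difference over 3 pairs of COL5A3, a minor collagen V chain, was -0.65 in the positive and 0.95 in the negative sort. That of COL14A1 was -1.71 in the positive and 0.21 in the negative sort. Taken as positive minus negative sort, COL5A3 differed by -0.90 in Bottom 10 and 0.70 in Top 10 cells, COL8A1, a short-chain network collagen, by -0.69 in Bottom 10 and 0.60 in Top 10 cells, COL14A1 by -1.48 in Bottom 10 and 0.44 in Top 10 cells, and COL16A1 by 0.21 in Bottom 10 and -0.19 in Top 10 cells.

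The difference between the sorts was tested as an interaction. It was -1.46 ± 0.87 on the log2 scale for COL5A3, -2.05 ± 1.43 for COL14A1, -1.06 ± 1.02 for COL8A1 and 0.43 ± 0.58 for COL16A1, and none passed the threshold (edgeR adjusted p = 0.998 for each). In the blocked fit of the groups of 10 rounds the edgeR adjusted p-values were 0.296 for COL5A3, 0.179 for COL14A1, 0.362 for COL8A1 and 0.368 for COL16A1.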

How the results depend on the processing

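COL13A1 between Bottom 10 and Top 10 cells was called in both sorts under every setting run except the blocked fit without replicate 2. Over the named genes and settings, 472 values kept their side of the threshold and their direction, 17 passed it only under the alternative, 35 lost it and 0 reversed. Collagens called in Bottom 10 against Top 10 negative cells numbered 3, against 12 with the replicate block in the 4 groups of 10 rounds, 5 in these groups with no block, and 0 to 15 with the block and without a replicate number (5 without replicate 1, 0 without replicate 2, 15 without replicate 3). In Bottom 10 against Top 10 positive cells they numbered 1, against 8 with the block, 2 with no block, and 3, 0 and 8 with the block and without replicate 1, 2 or 3. Between the sorts the block in these 4 groups gave 1 call instead of 0 in Top 10 cells (COL9A2) and 1 in Bottom 10 cells (COL14A1). Without replicate 1, 2 or 3 there were 0, 0 and 1 in each, and the 1 was COL9A2 in Top 10 but COL6A3 in Bottom 10 cells. The block over all 10 groups gave 1 instead of 0 in Bottom 5 against Parental negative cells and changed no other count. With only the compared groups, 0 collagens instead of 1 were called in Bottom 10 against Parental negative and in Top 10 against Parental positive cells, and 0 instead of 2 in Presorted negative Bottom 4 against Parental negative cells. DESeq2 gave 1 instead of 0 in Bottom 10 against Parental positive, Top 10 against Parental negative, Bottom 5 against Parental negative and Bottom 10 against Bottom 5 negative cells. It gave 2 instead of 1 in Top 10 against Parental positive cells, 5 instead of 2 in Presorted negative Bottom 4 cells and 2 instead of 0 in Top 10 against Top 5 positive cells. RLE factors gave 1 instead of 0 in Bottom 5 against Parental negative cells. Without the libraries that stood apart, 1 instead of 2 was called in Presorted negative Bottom 4 cells. The cause of these shifts was not tested, other than fewer libraries where some were left out. The share of all genes called was not counted where a replicate number or a single library was left out. Nor was it counted for RLE factors or for only the compared groups. For DESeq2 it is given above only for Presorted negative Bottom 4 cells. It is not given for the block over all 10 groups or without the libraries that stood apart. The collagen counts under these settings are therefore not shown to be particular to collagens. Leaving out a library gave 1 to 2 calls in Bottom 10 against Top 10 negative cells, 0 to 1 in Bottom 10 against Parental negative, Top 10 against Parental in each sort, Bottom 5 against Parental negative and Top 10 against Top 5 positive cells, 0 to 2 in Top 5 against Parental positive cells and 0 to 3 in Presorted negative Bottom 4 cells. Most 2-fold changes were missed in the simulated fit of 2 groups. That fit does not measure how many the fit of all 10 groups would miss. Collagens that were not called may still differ.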
